A study of Rattus norvegicus with 16 samples.

Results

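Nos3, Edn1 and Vegfa, which encode the endothelial nitric oxide synthase, the endothelin-1 precursor and vascular endothelial growth factor A, were examined in RNAseq libraries of 16 rat hearts. The genes were taken by Ensembl identifier: ENSRNOG00000009348 for Nos3, ENSRNOG00000014361 for Edn1 and ENSRNOG00000019598 for Vegfa. Of 4 identifiers given for these vasoactive genes, these 3 were analysed, out of 32545 genes in the files, and the identifier given for Nos2, the inducible nitric oxide synthase, was not analysed here. The symbols are those given with the identifiers, since the files hold identifiers alone. All animals were young male Wistar rats, matched for age and weight within the study, and each library came from a frozen piece of the heart of 1 rat, so the replicates are animals. The 10 saline control rats received 5 weekly intravenous injections of saline according to the labels, whereas the methods of the study describe a further week of saline. The 6 DOX high rats received doxorubicin (DOX), an anthracycline used in chemotherapy that damages the heart, as 5 weekly injections of 3 mg per kg, a cumulative dose of 15 mg per kg. Rats of the low numbers, 5 to 10, were all saline controls, whereas rats 30 to 39 held 4 saline controls (34 to 37) and all DOX high rats. The study used these libraries to ask whether oxidative stress genes were altered in DOX-treated hearts, and the genes described here govern the tone and growth of the vessels of the heart.

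Nitric oxide synthases make nitric oxide from L-arginine. The endothelial enzyme encoded by Nos3 sits in the lining of blood vessels, where its product relaxes the smooth muscle of the vessel wall. Edn1 encodes a precursor that is cut to endothelin-1, a peptide that constricts vessels and acts on the receptors Ednra and Ednrb. Endothelin-1 is induced by stretch, cytokines and low oxygen. Vegfa encodes a secreted growth factor that is made by cardiomyocytes among other cells, rises in low oxygen and acts on endothelial cells through the receptors Kdr and Flt1, whose signal also activates the Nos3 enzyme.

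The upstream sequences of the genes are shown so that motifs of factors known to act on vascular genes can be read beside the levels. The windows are the 250 bases before the annotated start in the rat RefSeq annotation of GRCr8, matched by symbol for all 3 genes. They are on another build than the counts, which used Rnor_6.0. Capitals mark matches, on either strand, to the letters of 4 motifs. The TATA box was searched as TATAAA. The GC box, which Sp1 binds, was searched as GGGCGG. The letters AGATAA stand for sites of GATA factors, and ACGTG is the core of the hypoxia response element. For AP-1 the letters TGANTCA were searched as well, and none of the windows held them. Only these exact letters were searched, so a window without a match may still hold a variant of the site.
Nos3, GRCr8 chr4:11706582-11706831, minus strand: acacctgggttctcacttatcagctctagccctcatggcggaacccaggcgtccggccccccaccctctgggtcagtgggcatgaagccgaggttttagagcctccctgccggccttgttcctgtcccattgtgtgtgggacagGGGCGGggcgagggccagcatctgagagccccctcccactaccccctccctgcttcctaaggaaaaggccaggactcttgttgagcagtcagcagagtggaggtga
Edn1, GRCr8 chr17:22666688-22666937, minus strand: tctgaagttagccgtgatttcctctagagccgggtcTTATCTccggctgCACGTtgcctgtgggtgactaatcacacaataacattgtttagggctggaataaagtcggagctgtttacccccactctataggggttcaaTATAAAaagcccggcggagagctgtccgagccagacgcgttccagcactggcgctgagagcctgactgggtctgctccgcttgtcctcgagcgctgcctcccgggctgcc
Vegfa, GRCr8 chr9:22452604-22452853, plus strand: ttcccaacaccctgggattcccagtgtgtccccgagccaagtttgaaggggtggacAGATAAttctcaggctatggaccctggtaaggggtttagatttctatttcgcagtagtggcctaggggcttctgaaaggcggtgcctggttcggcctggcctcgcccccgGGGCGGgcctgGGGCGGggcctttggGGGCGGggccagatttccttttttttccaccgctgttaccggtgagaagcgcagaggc

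Of the 3 windows, that of Edn1 held TATAAA, 110 to 105 bases before the start. It also held, both read on the opposite strand, AGATAA at 214 to 209 bases and ACGTG at 201 to 197 bases before the start. The Nos3 window held 1 GC box, at 106 to 101 bases. The Vegfa window held 3 GC boxes, between 84 and 53 bases, and AGATAA at 194 to 189 bases before the start. The marked matches do not overlap. Among 33469 rat windows of the same length, 12.9% held TATAAA, 30.5% GGGCGG, 10.3% AGATAA, 16.6% ACGTG and 6.34% TGANTCA. The G and C share was 56.4% for Edn1, 62.4% for Nos3 and 60.4% for Vegfa, against a median of 51.2% over all windows. The table holds 2 windows for Vegfa, of which the one listed first is shown. A match of letters describes the window and is not evidence that a factor binds there.

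Libraries held between 13784896 and 16842418 counted fragments in saline and between 15369246 and 18025615 in DOX high hearts. Of these libraries, 2 are described further. DOX high rat 32 had 2.27% of its counts on genes that the expression filter removed, against 0.0683% to 0.242% in the other 15 rats, and its factor from TMM scaling, the trimmed mean method of edgeR by which libraries are set to one scale, was the highest of all at 1.36. Of the 13607 genes tested, 553 exceeded all other hearts by over 2-fold in rat 32, and the next heart by this measure had 131 such genes. Saline rat 37 lay closer across genes to the DOX high libraries (median Pearson r of 0.973 on the log2 scale of CPM, counts scaled to a common library size with the TMM factor) than to the other saline libraries (0.946). Both were kept under their labels, and results are given with and without them. The heart tissue was not checked against cell type markers, since the identifiers could not be paired with symbols. In whole heart tissue, fewer cells of a type and less RNA per cell cannot be told apart.

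All 3 genes passed the expression filter of edgeR and could be tested, although Edn1 rested on few counts. TPM are the deposited values, scaled by gene length and a factor for each library. Vegfa was the most abundant per gene length, with a mean of 121 TPM over all 16 hearts, above 95.1% of the genes tested. Nos3 had a mean of 22.2 TPM, above 74.8% of the genes tested. Edn1 had a mean of 3.15 TPM, above 26.9% of the genes tested, and a mean of 1.56 TPM, above 16.4% of them, without rat 32. The order Vegfa, Nos3, Edn1 held in every heart except that of DOX high rat 32, in which Edn1 (26.9 TPM) lay above Nos3 (21.6 TPM).

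**Figure D1:**
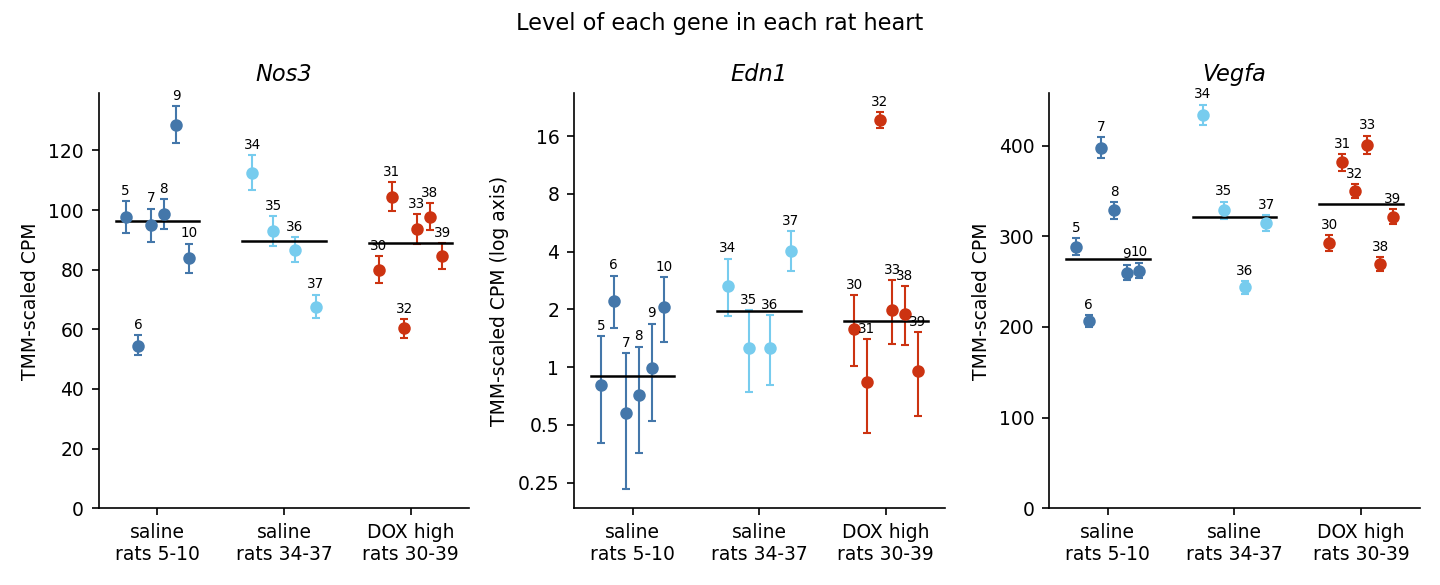
Level of Nos3, Edn1 and Vegfa in each heart, as TMM-scaled CPM (log axis for Edn1), for saline rats 5 to 10, saline rats 34 to 37 and DOX high rats 30 to 39. Points are rats with their number, vertical bars are 95% Poisson intervals of counting error alone, and horizontal lines are group medians. Nos3 and Vegfa overlap between all groups, and Edn1 of DOX high rat 32 (19.5 CPM) lies far above all other hearts.

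Between DOX high and saline hearts, 851 of the 13607 genes tested passed an adjusted p under 0.05, or 6.25% (edgeR quasi-likelihood test, Benjamini-Hochberg adjustment over all genes tested). None of the 3 vasoactive genes was among them. With the animal number (rats 5 to 10 or rats 30 to 39) as a covariate the count over all genes fell to 2, and within rats 30 to 39 it was 0 (1891 with an unadjusted p under 0.05 in edgeR). At an unadjusted p under 0.05, 1 of the 3 passed, Edn1, against 24.4% of the genes tested, and Edn1 had p = 0.631 in edgeR without rat 32. DESeq2 and limma also called 0 of them, with DESeq2 giving no p for Edn1, as it does when one library holds an outlying count. The median log2 fold change of all genes tested was -0.0047, and 97.5% of them had a smaller change in either direction than Edn1, 39.4% than Vegfa and 25.9% than Nos3. Without rat 32 these shares were 57.1%, 37.7% and 1.12%, so the rank of Edn1 rested on that heart.

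Nos3, the vasodilator enzyme, had nearly the same level in both groups. Saline hearts ranged from 54.5 CPM in rat 6 to 129 CPM in rat 9, with a median of 93.9 CPM. DOX high hearts ranged from 60.3 CPM in rat 32 to 104 CPM in rat 31, with a median of 89.0 CPM. All 6 DOX high values thus lay inside the saline range, and 2 of them were above the saline median. The means were 91.7 ± 20.9 CPM (SD, n = 10) and 86.7 ± 15.7 CPM (SD, n = 6). The log2 fold change was -0.08 (standard error 0.16, 95% interval -0.41 to 0.25, adjusted p = 0.793 from edgeR), which is a fold between 0.751 and 1.19. Hence changes of Nos3 RNA beyond this interval were not seen, but smaller ones were not detectable with these animals. In TPM, which do not carry the TMM factor, the means were 22.3 ± 3.30 (SD, n = 10) and 22.0 ± 2.51 (SD, n = 6), and rat 32, lowest of its group in CPM, had 21.6 TPM, near the group mean. Without that rat the log2 fold change was 0.0029 (95% interval -0.32 to 0.33, edgeR adjusted p = 0.995).

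Edn1, the constrictor ligand, differed between the group means by more than the others, and this difference rested on a single heart. Saline hearts had between 7 counts (0.574 CPM, rat 7) and 69 counts (4.06 CPM, rat 37), with a median of 1.26 CPM. In DOX high hearts, rats 30, 31, 33, 38 and 39 had 1.59, 0.833, 1.98, 1.90 and 0.955 CPM. DOX high rat 32 had 462 counts, or 19.5 CPM, with a counting interval of 17.7 to 21.3 CPM. These 5 hearts lay within the saline range, and the sixth was 4.79-fold above the highest other heart, saline rat 37. The means were 1.66 ± 1.09 CPM (SD, n = 10) in saline and 4.45 ± 7.37 CPM (SD, n = 6) in DOX high hearts. With all rats the log2 fold change was 1.43 (standard error 0.63, 95% interval 0.09 to 2.76), with p = 0.0375 before and 0.176 after adjustment in edgeR. Without rat 32 the DOX high mean was 1.45 ± 0.531 CPM (SD, n = 5) and the log2 fold change was -0.21 (standard error 0.42, 95% interval -1.10 to 0.69, edgeR adjusted p = 0.813). Without saline rat 37 it was 1.69 (edgeR adjusted p = 0.0952), and without both rats it was 0.06 (95% interval -0.72 to 0.83, edgeR adjusted p = 0.943). The direction of Edn1 thus depended on 1 library. On the log2 CPM scale, where a single high value weighs less, the group means differed by 0.59 (two-sided exact permutation test, p = 0.374). This test was not among those planned.

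**Figure D2:**
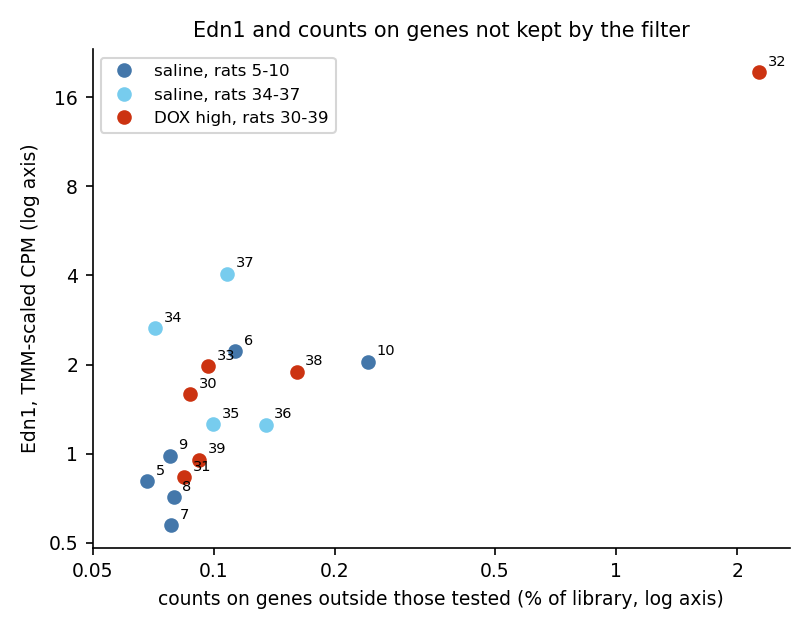
Edn1 level of each heart (TMM-scaled CPM, log axis) against the share of the library's counts on genes not kept by the expression filter (percent, log axis), with the number of each rat. DOX high rat 32 is apart on both axes, with 19.5 CPM and 2.27%, and saline rat 37, second highest for Edn1 with 4.06 CPM, has 0.108%.

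The high Edn1 of rat 32 came with the other features of its library, as the plot of Edn1 against counts outside the tested genes shows. Of the 13607 genes tested, 101 (0.742%) exceeded the highest other heart by at least as much as Edn1 did in that heart. Whether these genes belong to another cell type or tissue was not tested, since they carry no symbols. In the same heart Nos3 had 60.3 CPM and Vegfa 350 CPM, both within the saline range.

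Edn1 also varied among saline hearts. Its coefficient of variation was 66.0% of the mean CPM in saline, where counting error alone gives 20.2%. Without saline rat 37 the observed value was 53.1%. For Nos3 the observed value was 22.8% against 2.72% from counting, and for Vegfa 22.8% against 1.49%. Within the 5 DOX high hearts other than rat 32, the observed value for Edn1 was 36.6% against 20.5% from counting. The biological coefficient of variation that edgeR estimates within groups, beyond counting error, was 0.832 for Edn1, at or above 97.5% of the genes tested. It was 0.221 for Nos3 and 0.211 for Vegfa, near the middle of the genes tested (51.8% and 48.5% at or below). These estimates came from the fit with all rats and were not computed without rat 32. With that rat included, the observed value for Edn1 in DOX high hearts was 165%, against 11.4% from counting. How far the 0.832 of Edn1 and its rank rest on that heart was not tested.

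Vegfa, the angiogenic ligand, was slightly higher on average in DOX high hearts, by less than the spread between animals. Saline hearts ranged from 206 CPM in rat 6 to 434 CPM in rat 34, with a median of 302 CPM. DOX high hearts ranged from 269 CPM in rat 38 to 401 CPM in rat 33, with a median of 336 CPM. No DOX high heart lay outside the saline range, although 4 of 6 were above the saline median. The means were 306 ± 70.0 CPM (SD, n = 10) and 336 ± 50.9 CPM (SD, n = 6). The log2 fold change was 0.13 (standard error 0.15, 95% interval -0.18 to 0.44, edgeR adjusted p = 0.621), a fold between 0.885 and 1.36. In TPM, rat 32 had the highest Vegfa of all hearts with 190.0, where the next was saline rat 34 with 149. The group means in TPM were 114 ± 19.9 (SD, n = 10) and 133 ± 33.9 (SD, n = 6). With libraries scaled by their totals alone, the log2 fold change was 0.23 (95% interval -0.06 to 0.52, edgeR adjusted p = 0.363).

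Saline rats with high animal numbers were compared with the other saline rats and, on their own, with the DOX high rats. For Vegfa, saline rats 5 to 10 had 103 ± 15.5 TPM (SD, n = 6) and saline rats 34 to 37 had 130 ± 14.8 TPM (SD, n = 4), next to 133 TPM in DOX high hearts and 121 TPM in those without rat 32. In CPM, the scale of the test, these saline sets lay closer for their spread, at 291 ± 66.0 (SD, n = 6) and 330 ± 78.5 (SD, n = 4). The DOX high mean was 336 CPM, and 333 CPM without rat 32. Within rats 30 to 39 the log2 fold change of Vegfa was 0.02 (95% interval -0.36 to 0.39, edgeR adjusted p = 0.973). For Edn1, saline rats 5 to 10 had 1.23 ± 0.718 CPM (SD, n = 6) and saline rats 34 to 37 had 2.30 ± 1.34 CPM (SD, n = 4). The DOX high mean of 4.45 CPM lay above both and, without rat 32, the mean of 1.45 CPM lay between them. The DOX high median of 1.74 CPM was below the 1.95 CPM of saline rats 34 to 37. Within rats 30 to 39 the log2 fold change of Edn1 was 0.96 (95% interval -1.11 to 3.03, edgeR adjusted p = 0.670), and -0.67 (95% interval -1.60 to 0.26, edgeR adjusted p = 0.436) without rat 32. For Nos3 it was -0.06 (95% interval -0.43 to 0.32, edgeR adjusted p = 0.905) within these rats. Compared directly, saline rats 34 to 37 differed from saline rats 5 to 10 by a log2 fold change of 0.90 for Edn1 (95% interval -0.16 to 1.95), 0.19 for Vegfa (-0.25 to 0.62) and -0.05 for Nos3 (-0.51 to 0.42). None of these passed (edgeR adjusted p = 0.918, 0.918 and 0.977), in a comparison in which 0 of 13413 genes were called, or 0%, and 591 had an unadjusted p under 0.05 in edgeR.

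**Figure D3:**
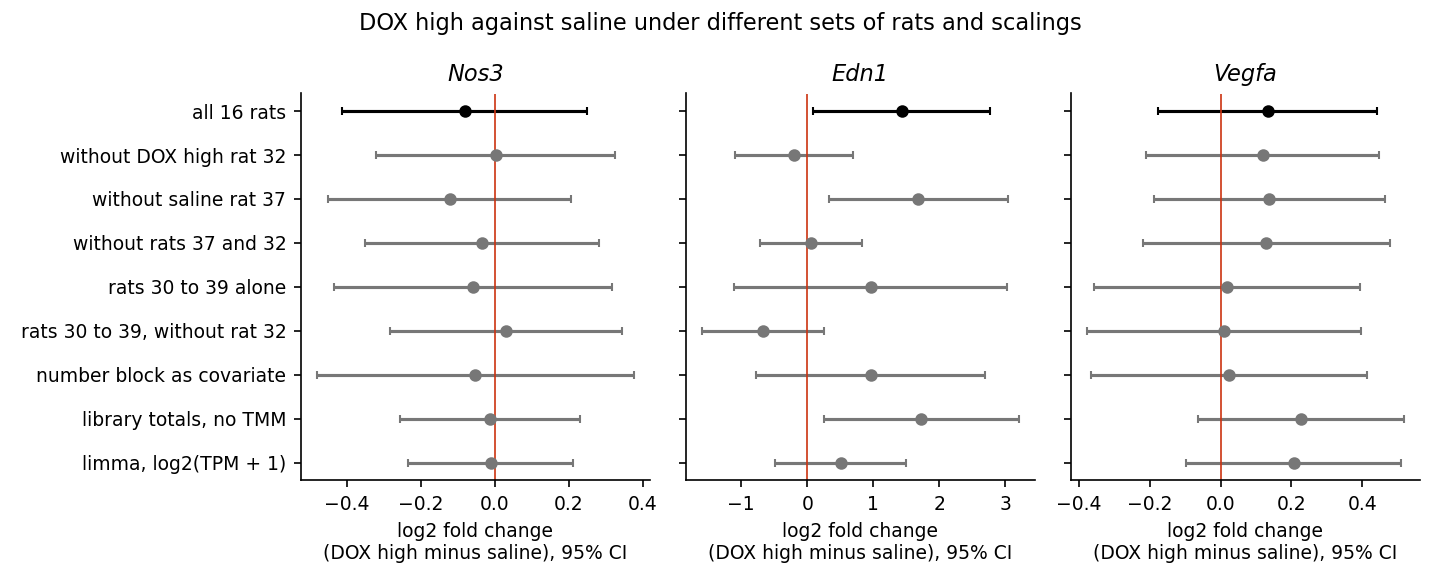
Log2 fold change of Nos3, Edn1 and Vegfa between DOX high and saline hearts (points, with 95% intervals; x axes differ between genes) with all 16 rats and with other sets of rats or scalings. The intervals of Nos3 and Vegfa include 0 in every fit shown, whereas Edn1 is at 1.43 with all rats and at -0.21 without DOX high rat 32.

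The ratio of a pair of these genes inside one library does not depend on how libraries are scaled to each other. The ratio of Vegfa to Nos3, in TPM, was between 3.07 and 7.06 in saline hearts and between 4.19 and 8.81 in DOX high hearts. The groups overlapped, with rat 32 alone above all saline hearts. The mean log2 ratio of Vegfa to Nos3 was higher by 0.22 in DOX high hearts (two-sided exact permutation test, p = 0.246, which became 0.508 when adjusted over 3 ratios). It was higher by 0.10 without rat 32 and by 0.091 within rats 30 to 39. Endothelin and nitric oxide oppose each other in the vessel wall, and the ratio of Edn1 to Nos3 in TPM ranged from 0.0235 to 0.232 in saline hearts. In the DOX high hearts other than rat 32 it ranged from 0.0309 to 0.0820, inside the saline range, and in rat 32 it was 1.25. The mean log2 ratio was higher by 0.69 in DOX high hearts (two-sided exact permutation test, p = 0.400, or 0.508 after adjustment), and the difference was -0.051 without rat 32 and 0.12 within rats 30 to 39. For Edn1 to Vegfa the mean log2 ratio differed by 0.47 (two-sided exact permutation test, p = 0.508 both before and after adjustment), by -0.15 without rat 32 and by 0.027 within rats 30 to 39. No unequal change between the members of a pair was therefore detected.

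**Figure D4:**
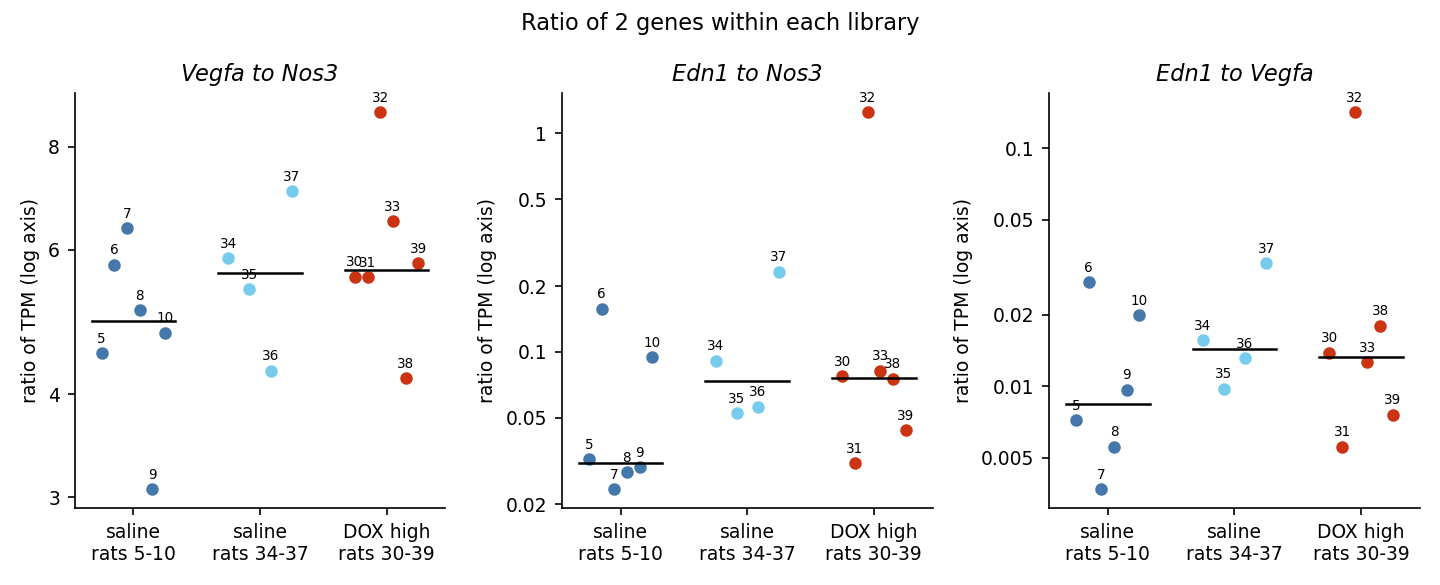
Ratio of TPM of Vegfa to Nos3, Edn1 to Nos3 and Edn1 to Vegfa within each library (log axes), for saline rats 5 to 10, saline rats 34 to 37 and DOX high rats 30 to 39; points are rats with their number and lines are medians. Ratios overlap between the groups except in DOX high rat 32, where Edn1 to Nos3 reached 1.25.

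Whether the genes varied together from heart to heart was examined within each group, for 3 pairs in 2 groups. Saline rats 5 to 10 were also examined alone, a subset beyond the 2 planned groups. Their p were adjusted apart, over 3 relations rather than over all relations examined. On log2 CPM, Nos3 and Vegfa had a Pearson r of 0.50 in saline hearts (Spearman rho 0.43, n = 10, permutation tests, p = 0.144 and 0.219, both adjusted over the 6 relations to 0.288 and 0.594). This fell to 0.21 without the 2 rats farthest from the median of Nos3, and was -0.080 in TPM. Within saline rats 5 to 10 it was 0.52 on log2 CPM and -0.59 in TPM. The relation thus depended on the scaling. Nos3 and Edn1 had an r of -0.51 in saline hearts (rho -0.48, permutation tests, p = 0.134 and 0.163, adjusted p = 0.288 and 0.594), -0.02 without the 2 farthest rats and -0.68 within rats 5 to 10. In DOX high hearts this r was -0.85 (rho -0.54, n = 6, exact permutation tests, p = 0.0639 and 0.297, adjusted p = 0.288 and 0.594), and -0.15 without rat 32. The r of Nos3 and Edn1 in TPM was -0.24 in saline hearts and -0.38 within rats 5 to 10. Vegfa and Edn1 had an r of -0.12 in saline hearts (rho -0.10, permutation tests, p = 0.745 and 0.785, adjusted p = 0.942 and 0.919), -0.30 without the 2 farthest rats, and -0.87 within rats 5 to 10 (rho -0.94, n = 6, exact permutation tests, p = 0.0194 and 0.0167, adjusted over the 3 relations in these rats to 0.0583 and 0.05). In TPM the r of these 6 rats was -0.20. In DOX high hearts Vegfa had an r of 0.07 with Edn1 and 0.05 with Nos3 (rho 0.09 and 0.14, n = 6, exact permutation tests, p from 0.803 to 0.942, adjusted p = 0.942 for both r and 0.919 for both rho). Without rat 32 the r of Vegfa was -0.27 with Edn1 and 0.39 with Nos3. Without the 2 rats farthest from the median, r in the 4 DOX high hearts that remain was 0.58 for Nos3 and Edn1, 0.095 for Nos3 and Vegfa and 0.10 for Vegfa and Edn1, values that rest on few hearts. For Vegfa and Edn1 these 4 hearts still included rat 32. In TPM the r of the 6 DOX high hearts was -0.14 for Nos3 and Edn1, 0.28 for Nos3 and Vegfa and 0.67 for Vegfa and Edn1. Rat 32, highest of all hearts in TPM for Edn1 and Vegfa, is in these values. The r in TPM was not computed without it. Saline rats 34 to 37 were not examined alone, since correlations were tested only in groups of at least 6 rats.

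For each gene, the gene with the most similar pattern was taken as the one with the highest Pearson correlation on log2 CPM over the 16 hearts, given as a description. For Nos3 this was ENSRNOG00000031368 (r = 0.92, and 0.91 without rat 32), which had 22.2 ± 6.43 CPM in saline (SD, n = 10) and 20.1 ± 2.95 CPM in DOX high hearts (SD, n = 6). For Edn1 it was ENSRNOG00000042094 (r = 0.91), which had 33.3 CPM in rat 32 and at most 23.5 CPM elsewhere, and for which r was 0.73 without that rat. For Vegfa it was ENSRNOG00000018518 (r = 0.85, with and without rat 32), which ranged only from 13.2 to 16.1 CPM over all hearts. A correlation over 0.9 was shared with Nos3 by 8 genes, with Edn1 by 1 gene and with Vegfa by none. These 3 neighbours did not pass the test between groups either (edgeR adjusted p = 0.675, 0.619 and 0.700).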

How the data were processed

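The authors aligned paired reads of polyadenylated heart RNA to Rnor_6.0 with Hisat2 and counted fragments on Ensembl exons with featureCounts (Subread 1.5.0 in the submitters' processing notes), without use of strand, so antisense overlaps are not told apart. The deposited counts are unnormalized. The deposited TPM values were made by the authors from these counts by gene length and a factor for each library. This factor does not follow the library totals. Within each group no library was a copy of another: in 60 pairs, chi-square was at least 10.4 times its degrees of freedom. Pairs of a saline and a DOX high library were not compared in this way.

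Genes were kept with filterByExpr, scaled by TMM and tested by the quasi-likelihood test of edgeR 4.0.16 (R 4.3.3) on all 13607 genes. The adjusted p had to be under 0.05, and the procedure was tested on simulated data. Log2 CPM had a prior count of 2. Exact permutation tests and correlations used Python 3.11.15, with 100000 resamples for 10 rats. Alternatives were DESeq2 1.42.0, limma 3.58.1 (log2 TPM with 1 or 0.1 added), other scalings and filters, rats 30 to 39, the number block and each rat left out. Poisson intervals cover counting error only, as no molecular identifiers are described.

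The genes and 9 pathway and marker lists were chosen with earlier results of these data known. The lists could not be used because 0 identifiers matched the gene table. Named genes were the members and the gene most correlated with each.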

Additional observations from a re-analysis of the deposited data

Results flagged for a closer look

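Of 16 groups of values (8 measures in each treatment group), 6 had an extreme rat whose gap to its nearest neighbour passed the 95% limit of Dixon, where chance gives about 1 in 20 such groups, or 0.8. DOX high rat 32 accounts for 5 of them, which come from 1 library and are not independent of each other. They are its Edn1 level of 19.5 CPM (the next DOX high heart had 1.98 CPM), its log2 ratio of counts of Edn1 to Nos3 (-1.63) and of Edn1 to Vegfa (-4.17), its TMM factor of 1.36 (next 1.01), and the 2.27% of its counts on genes outside those tested (next 0.161%). The other is saline rat 10, which had 0.242% of its counts on genes outside those tested (next 0.135%) and an Edn1 level of 2.05 CPM. For Nos3 and Vegfa CPM no rat passed this limit.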

How the results depend on the processing

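None of the alternative fits run brought Nos3, Edn1 or Vegfa past an adjusted p of 0.05 (30 fits for Nos3 and Vegfa, 28 with an adjusted p for Edn1), and the lowest adjusted p were 0.533, 0.0952 and 0.363. Edn1 could not be fitted with at least 10 counts in every library, since it has 7 in one, and had an unadjusted p under 0.05 in 14 fits. Leaving out each rat gave log2 fold changes of -0.15 to 0.0029 for Nos3, -0.21 to 1.69 for Edn1 and 0.08 to 0.20 for Vegfa. The signs of Nos3 and Edn1 turned without DOX high rat 32, and within rats 30 to 39 without that rat (0.030 and -0.67), the latter chosen after seeing the data, as was the robust edgeR fit. The permutation test on mean log2 CPM was not planned either. The ratios ranged from -0.051 to 1.02 (Edn1 to Nos3), -0.15 to 0.78 (Edn1 to Vegfa) and 0.10 to 0.32 (Vegfa to Nos3) with each rat left out. In TPM, also chosen afterwards, the saline correlations turned to -0.080 for Nos3 with Vegfa and 0.35 for Vegfa with Edn1, and in DOX high hearts Vegfa with Edn1 went from 0.07 to 0.67 and Nos3 with Edn1 from -0.85 to -0.14. The DOX high values in TPM include rat 32.

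The number of genes that differed, 851, was 1574 with DESeq2, 255 and 285 with limma (TPM + 1 and + 0.1), 0 in rats 30 to 39 (1891 with an unadjusted p under 0.05 in edgeR; 307 without rat 37 and 0 without rat 32), 2 with the number block, 1766 without rats 37 and 32, 110 at an adjusted p under 0.01 and 345 to 1762 with each rat left out, the highest without saline rat 37. The causes were not tested. No paired analysis was possible because no number is carried by both a saline and a DOX high rat.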
